A study of Mus musculus with 380 samples.

Results

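Krt5-high Psmb11-negative cells made up 4281 of the 25974 mouse thymic epithelial cells (TECs) that were kept from 380 CEL-Seq2 libraries. They were selected on readouts of the same cells. A cell was chosen by at least 30 *Krt5* transcripts per 10000, no *Psmb11* transcript, no *Aire* transcript, and a sum below 10 per 10000 of the cell cycle genes *Mki67*, *Top2a*, *Cdk1*, *Ccnb1*, *Birc5* and *Ube2c*. These levels are therefore no result. The 3 members nearest to the limit had 30.01, 30.02 and 30.02 *Krt5* transcripts per 10000, and the 3 cells nearest below it had 29.986, 29.992 and 29.999. In all, 1028 members lay between 30 and 40, and 1333 cells that met every other condition lay between 20 and 30. The limit was thus set within a continuous range of levels.

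The cells were CD45-EpCAM+ TECs of mice labelled C57BL/6, sorted 96 to a library, and in some libraries gated further for UEA-1 or Ly51 binding. Wild-type (WT) mice were taken at the embryonic stage E16.5 (1 female), at birth (P0, 1 female), at postnatal day 28 (P28; female A, female B and 1 male, all barcoded, and 1 male without the barcoding alleles) and at 1 year (1 female). *Foxn1-Fgf7* transgenic mice were taken at P28 (1 non-barcoded male and 1 barcoded female) and at 1 year (1 male). All mice but females A and B were taken as such by age, genotype, sex and protocol, since the labels name no individual for them. The study asked how TEC progenitor populations change from the embryo to old age, and how continuous stimulation by Fgf7 affects them. All mice at E16.5, P0 and 1 year and those named barcoded carried hU6-sgRNA-Hprt, *Foxn1-cre* and *Rosa26-LSL-Cas9* alleles, which scar *Hprt* in cells that have expressed *Foxn1*, and only a part of each well entered the transcriptome. In the transgenic mice, an *Fgf7* cDNA runs under the *Foxn1* promoter, so that TECs themselves make the ligand. The methods name that transgenic line on FVB/N, and strain and transgene cannot be told apart. At 1 year, genotype and sex cannot be told apart either, since the libraries of each genotype came from another sex.

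Keratin 5 pairs with keratin 14 in the basal layer of stratified epithelia, and in the thymus it marks TECs of the medulla and of the border between cortex and medulla. *Psmb11* encodes a proteasome subunit of cortical TECs (cTECs), and *Aire* encodes the regulator that lets mature medullary TECs (mTECs) display tissue antigens. *Foxn1* encodes the transcription factor on which TEC identity depends, and Fgf7, also known as keratinocyte growth factor, acts on TECs through the epithelial isoform of Fgfr2. Transcript counts do not measure progenitor activity, and the cells are therefore named here by the rule that selected them.

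Members held a median of 3657 to 10337 transcripts per cell, depending on the mouse, and their transcripts summed per mouse came to between 127644 (21 cells at E16.5) and 10292200 (1867 cells in the 1-year transgenic male). The sums at E16.5 and P0 (27 cells, 196376 transcripts) were by far the smallest. Levels below are counts per 1000000 (CPM) of these sums, without mitochondrial genes, spike-ins and *Hprt*. All libraries used the same well barcodes, and for 0 pairs of libraries of 1 mouse did the totals per well correlate above 0.9 (highest 0.851). Doublets were not called. In 2 libraries, with 15 members, under 80% of the transcripts lay in the 96 columns used, and leaving both out gave the same counts of called genes in all 3 comparisons. A further 4 P28 libraries labelled male and as a biological replicate did not match that label in their sex-linked transcripts, and were left out of the tests (35 of 272 cells were members).

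The share of Krt5-high Psmb11-negative cells differed by age. Among unsorted TECs, it was 0.779% at E16.5 (21 of 2697, 95% interval 0.483% to 1.19%) and 0.494% at P0 (7 of 1418, 0.199% to 1.01%). At P28, the WT mice had 13.9% (non-barcoded male), 13.6% (barcoded male), 19.8% (female A) and 10.9% (female B), a mean of 14.5% ± 3.78 (SD, n = 4). The WT 1-year female had 31.2% (508 of 1627, 28.98% to 33.5%) and the transgenic 1-year male 50.7% (1867 of 3682, 49.1% to 52.3%). These intervals are exact binomial and cover counting error only. E16.5 and P0 lay below every P28 mouse, and both 1-year mice above, with 1 mouse, as defined here, at each of these ages and genotypes and hence no test.

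In the transgenic mice at P28, the share was 8.25% (87 of 1055) in the non-barcoded male and 6.47% (210 of 3247) in the barcoded female, a mean of 7.36% ± 1.26 (SD, n = 2). Both lay below all 4 WT mice. The difference of -7.18 percentage points had p = 0.0667 in an exact two-sided permutation test over mice, which is the smallest p that the 15 possible splits allow. It was -3.93 with *Krt5* at 50, -9.30 with *Krt5* at 20 and -6.06 with sorted libraries included, each with p = 0.133 in the same exact test. At 1 year, the order was the opposite, with a difference of 19.5 percentage points between the transgenic and the WT animal, for which no test was possible.

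The share also depended on depth and on the *Psmb11* condition of the rule. After each cell was thinned to 1500 molecular barcodes (UMIs), the shares were 2.25% at E16.5, 1.22% at P0, 14.9% to 23.7% in WT mice at P28, 9.67% and 10.7% in their transgenic counterparts, and 34.1% and 54.8% at 1 year, with the 3141 cells of fewer UMIs left out. At E16.5, 190 of 2697 cells had *Krt5* at 30 or more, and 150 of these held a *Psmb11* transcript, so that the rule removed 88.9% of the Krt5-high cells. At P0, it removed 75.7%, in the WT mice at P28 between 32.9% and 47.2%, in the transgenic P28 mice 22.3% (male) and 57.8% (female), and at 1 year 28.2% in the WT female and 13.8% in the transgenic male. The order of the ages was also present without these conditions, since Krt5-high cells of any kind made up 7.04% of cells at E16.5, 5.71% at P0, 17.9% to 27.1% in WT mice at P28, and 41.3% and 58.9% at 1 year in WT and transgenic mice. In the transgenic P28 mice, they made up 10.6% (male) and 15.3% (female), both below the WT mice. These shares of Krt5-high cells were counted over all libraries, sorted ones included.

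Some libraries were sorted for Ly51, the cTEC surface marker, or for UEA-1 binding. In Ly51+ sorts at P28, female A had 2.30% (4 cells), the non-barcoded male 2.56% (8 cells) and female B 0%, where 0 cells allow a share of up to 2.13% by the exact interval. In the Ly51+ sort of the WT 1-year female, they were 28 of 183 (15.3%, 10.4% to 21.3%). In UEA-1+ sorts, which enrich mTECs, they were 3.80% (20 cells, 2.34% to 5.81%) at P0, where unsorted cells had 0.494%, and 11.7% (31 cells, 8.06% to 16.1%) in the non-barcoded male at P28, where unsorted cells had 13.9%. After thinning to 1500 UMIs, the Ly51+ shares were 4.85% (non-barcoded male), 5.99% (female A) and 1.81% (female B) at P28 and 30.7% (23.7% to 38.4%) at 1 year, where unsorted cells had 34.1%, and the UEA-1+ shares were 7.38% at P0 and 15.9% in the P28 male.

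**Figure D1:**
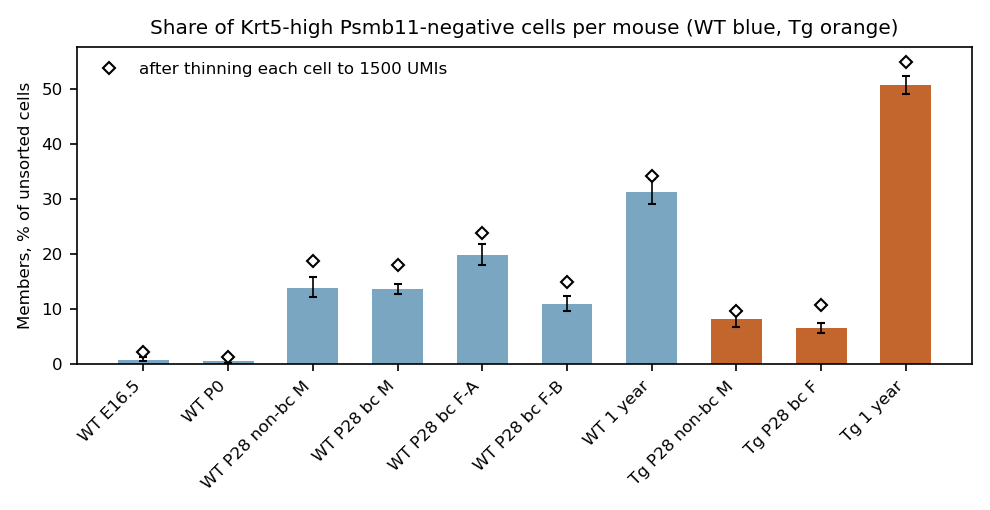
Bars give the percentage of unsorted TECs of each mouse that met the rule for Krt5-high Psmb11-negative cells, with exact 95% binomial intervals, and diamonds give the percentage after each cell was thinned to 1500 UMIs (bc, barcoded; F, female; M, male; Tg, *Foxn1-Fgf7*). The bars run from 0.494% at P0 to 50.7% in the 1-year transgenic male, and both transgenic P28 bars lie below the 4 WT P28 bars.

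The identity of the members was described against the other cells of the same mouse, with no test, since the rule had chosen them from these cells. Of the 10892 genes with a mean of at least 10 CPM in either set at P28, 91 (0.835%) were at least 2-fold higher in members in each of the 4 WT P28 mice, and 225 (2.07%) at least 2-fold lower, with 10 CPM added to both levels. The median gene had a log2 ratio of -0.01. Among the genes that were higher were basal keratins, actin-based contractile genes, secreted chemokines and matrix proteins, complement and interferon-induced genes.

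*Krt14*, the partner of *Krt5* (chr11:100203162-100207548, minus strand, GRCm38), stood at 1586, 1773, 1406 and 1567 CPM in members of the 4 WT P28 mice, a mean of 1583 ± 150.4 (SD), against 372.8 ± 129.1 in the other cells. *Krt17*, another basal keratin, had 4656 ± 280 against 1856 ± 258. Of the 16 basal keratin and adhesion genes listed, 5 were at least 2-fold higher in each mouse and 0 lower, with a median log2 ratio of 1.11. *Trp63*, the master regulator of stratified epithelia, had 186.4 ± 56.6 against 111.8 ± 30.2 and was not among them. Of the simple epithelial keratins, *Krt8* had 1349 ± 359 against 1934 ± 464 and *Krt18* 1420 ± 51.8 against 1806 ± 514. The simple epithelial list went both ways. Of its 10 genes, 1 was at least 2-fold higher in each mouse and 2 lower, with a median log2 ratio of -0.42. *Epcam*, on which the cells had been sorted, lay between 353 and 635 CPM in members of all 10 mice.

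Among the 10 contractile genes, 6 were higher and 0 lower. *Acta2*, smooth muscle actin (chr19:34241090-34255590, minus strand), had 853, 1593, 1688 and 1031 CPM, with a mean of 1291 ± 412 against 371 ± 209 in other cells. *Tagln*, an actin-binding protein, had 1002 ± 225 against 223.4 ± 84.1, at least 3.77-fold in every WT P28 mouse with 10 CPM added. *Tpm2*, tropomyosin, had 588 ± 34.9 against 186.4 ± 31.3. *Myl9*, myosin light chain, had 238.2 ± 71.9 against 77.1 ± 22.5.

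Ranked by the lowest ratio in any of these mice, the first of the 20 named genes was *Ccl11*, eotaxin (chr11:82057823-82062955, plus strand), with 211, 217.6, 402.2 and 170.5 CPM in members of the 4 WT P28 mice and 44.1 ± 26.5 in the other cells. *Ccl21a*, the Ccr7 ligand that draws thymocytes to the medulla, had 135.6 ± 37.5 against 27.5 ± 10.1, although near-identical copies of this gene exist and reads that fit several loci had been discarded. Of 15 chemokines and cytokines, these were the 2 that were higher. The 4 that were lower include *Ccl25*, a cTEC chemokine, with 188.3 ± 144.8 against 2510 ± 1433. The other genes of the 20 were *Tgfbi*, *C1s1*, *Col6a1*, *Gpx3*, *Ifi204*, *Emp2*, *Mpzl2*, *Htra1*, *Cald1*, *Sdc3*, *Crp*, *Igfbp4*, *Wfikkn2* and *Slc7a11*. They include matrix genes (*Tgfbi*, *Col6a1*, the secreted protease *Htra1*), the complement protease *C1s1*, the inhibitor of TGF-beta family ligands *Wfikkn2* at 563.3 ± 146.2 against 184.3 ± 64.6, and the cystine transporter *Slc7a11* at 286.9 ± 85.2 against 96.2 ± 40.9.

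Complement and interferon-induced genes were part of the same profile. *C3* had 762, 1233, 1294 and 925 CPM in members at P28, a mean of 1053 ± 252.4 against 409 ± 150.5, and 3 genes of the complement list were higher and 0 lower. Of 18 interferon-response genes, 3 were higher, with *Ifi27l2a* at 1708 ± 408 against 495 ± 121.4 and *Irf7* at 415 ± 69.95 against 137.6 ± 49.1.

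The 10 most lowered genes, ranked by the smallest decrease in any of the 4 WT P28 mice, were *Ccl25*, *Hdc*, *Cd83*, *Cd52*, *Prss16*, *Ahcyl2*, *Laptm5*, *Cdx1*, *Tbata* and *S100g*. Of the 12 cTEC markers, 8 were lower and 0 higher, and the median log2 ratio of the list was -1.99. *Prss16*, the thymus-specific serine protease of cTECs, had 195 ± 138.9 against 1944 ± 1150. The rule left every cell with a *Psmb11* transcript among the other cells, so lower cTEC markers in members are not independent of the selection. Cells without *Krt5* that met every other condition had *Prss16* at 273.6 ± 162.5 and *Ccl25* at 383.4 ± 151.4. *Hdc*, histidine decarboxylase, had 24.5 ± 7.59 against 233.9 ± 37.5. *Foxn1* was present in members, at 90.5 ± 26.98 against 170.8 ± 40.4, and no gene of the 12 thymus transcription factors was at least 2-fold higher or lower. *Fezf2*, a regulator of tissue antigens in mTECs, had 436 ± 112.3 against 552.1 ± 63.4. Of 8 MHC class II genes, 0 were at least 2-fold higher or lower in all 4 mice, and *H2-Aa* had 6840 ± 2466 against 8097 ± 2699.

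Of the 53 postnatal progenitor genes of the study, 52 of them not used by the rule, 35 were at least 2-fold higher in members in all 4 WT P28 mice and 0 lower, with a median log2 ratio of 1.44. Of its early progenitor genes, 9 (6.98%) were higher and 2 lower, with a median of 0.20. The study chose both lists on these samples, so the counts are not independent evidence.

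Per cell, the profile was common but not uniform. In cells thinned to 1500 UMIs, *Krt14* was found in 66.7% to 80.8% of members of the WT P28 mice. Cells of the same mice with *Psmb11* at 30 or more per 10000 are given for contrast, and it was found in 0% to 3.96% of them. How much of the latter shares is free RNA was not tested. *Krt17* was found in 96.6% to 98.9%, against 53.8% to 81.2%, the highest share of these genes in *Psmb11*-high cells. *Acta2* was found in 42.7% to 64.7%, against 0% to 25%, *Apoe* in 60.3% to 89.6%, against 7.69% to 32.7%, and *C3* in 47.9% to 67.03%, against 0% to 8.33%. *Ccl21a* was found in only 13.2% to 21.2% of members, and in 0% of the *Psmb11*-high cells of these mice. *Foxn1* was found in 9.35% to 14.1% of members, below the 37.6% to 57.7% of *Psmb11*-high cells. The *Psmb11*-high groups were small, with 24 cells in the barcoded male and 26 in the non-barcoded one.

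Mean levels of some genes differed with the level of *Krt5* among members. In WT P28 members with *Krt5* between 30 and 50 per 10000, *Krt14* had 1344 ± 229 CPM, and in those at 100 or more 1852 ± 404.4 (SD, n = 4). *Krt17* had 3718 ± 216.8 and 7003 ± 1112, *Krt18* 1210 ± 157.8 and 2113 ± 478.9, and *Ccl11* 163.3 ± 81.3 and 505 ± 275.8. The values per mouse overlapped for *Krt14* (1097 to 1617 and 1578 to 2453) and for *Ccl11* (81.5 to 270 and 218.6 to 823.4). *Igfbp4* had 421.3 ± 40.997 and 217.04 ± 66.9, and *Fgfr2* 148.9 ± 8.44 and 79.997 ± 21.5. *Acta2* had 1240 ± 327.7 and 1131 ± 500, *C3* had 1023 ± 330.5 and 1244 ± 132.96, and *Apoe* had 2068 ± 970 and 1687 ± 1262, each of these 3 within its spread. Cells just below the limit, with *Krt5* between 20 and 30 and otherwise alike, had *Krt14* at 1041 ± 173.2, *Acta2* at 1110 ± 450 and *Ccl21a* at 99.1 ± 26.6, much nearer to members than cells without *Krt5* (227 ± 97.98, 275 ± 187.6 and 18.01 ± 10.1). Krt5-high cells that the rule left out for *Psmb11* had *Krt14* at 1189 ± 175.9, *Acta2* at 852 ± 166.3 and *Prss16* at 960 ± 767, and those left out for *Aire* had *Fezf2* at 755 ± 121.9 against 436 ± 112.3 in members. These groups are cells of the same mice, and no test was made.

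**Figure D2:**
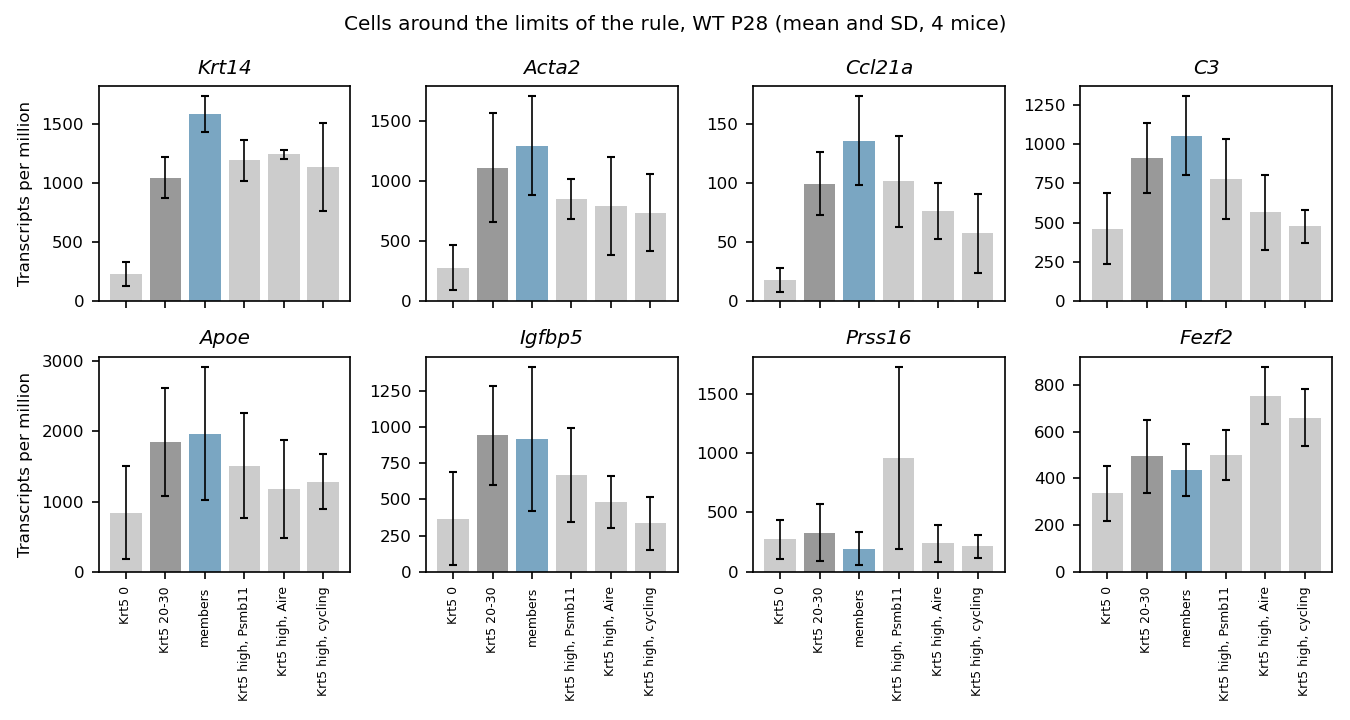
Bars give the mean level (CPM, with the SD of 4 WT P28 mice) of 8 genes in members (blue) and in cells that missed the rule, namely those without *Krt5*, those with *Krt5* at 20 to 30 per 10000, and Krt5-high cells with *Psmb11*, with *Aire* or cycling. *Krt14* runs from 227 in cells without *Krt5* to 1583 in members, with cells at 20 to 30 between them at 1041, and *Prss16* is highest in Krt5-high cells with *Psmb11*.

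The 2-fold ratios of the 91 genes, which were chosen in the WT P28 mice, did not hold in every other mouse. Such a ratio depends on the other cells of the mouse as well as on the members. The share of all 10892 genes with a 2-fold ratio was not counted for each mouse. At least 2-fold higher levels in members were also seen for 28 of the 91 at E16.5, 50 at P0, 45 in the WT 1-year female, 86 and 68 in the transgenic P28 male and female, and 10 in the transgenic 1-year male. At E16.5, those that held include *Krt14* (log2 ratio 3.08), *C3* (2.65), *Krt17* (2.26) and *Ifi27l2a* (2.04), whereas *Tagln* (-2.34), *Acta2* (-0.55), *Col6a1* (-1.12) and *Apoe* (-1.24) were not higher in the 21 members than in the other cells. In the transgenic 1-year male, 88 of the 91 ratios were still above 1, with a median log2 ratio of 0.63. In the WT 1-year female, all 91 were above 1, with a median of 0.99. *Krt5* in the other cells was at 2486 CPM in the transgenic and 2203 in the WT 1-year animal, against 1156 ± 267.5 in WT mice at P28.

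**Figure D3:**
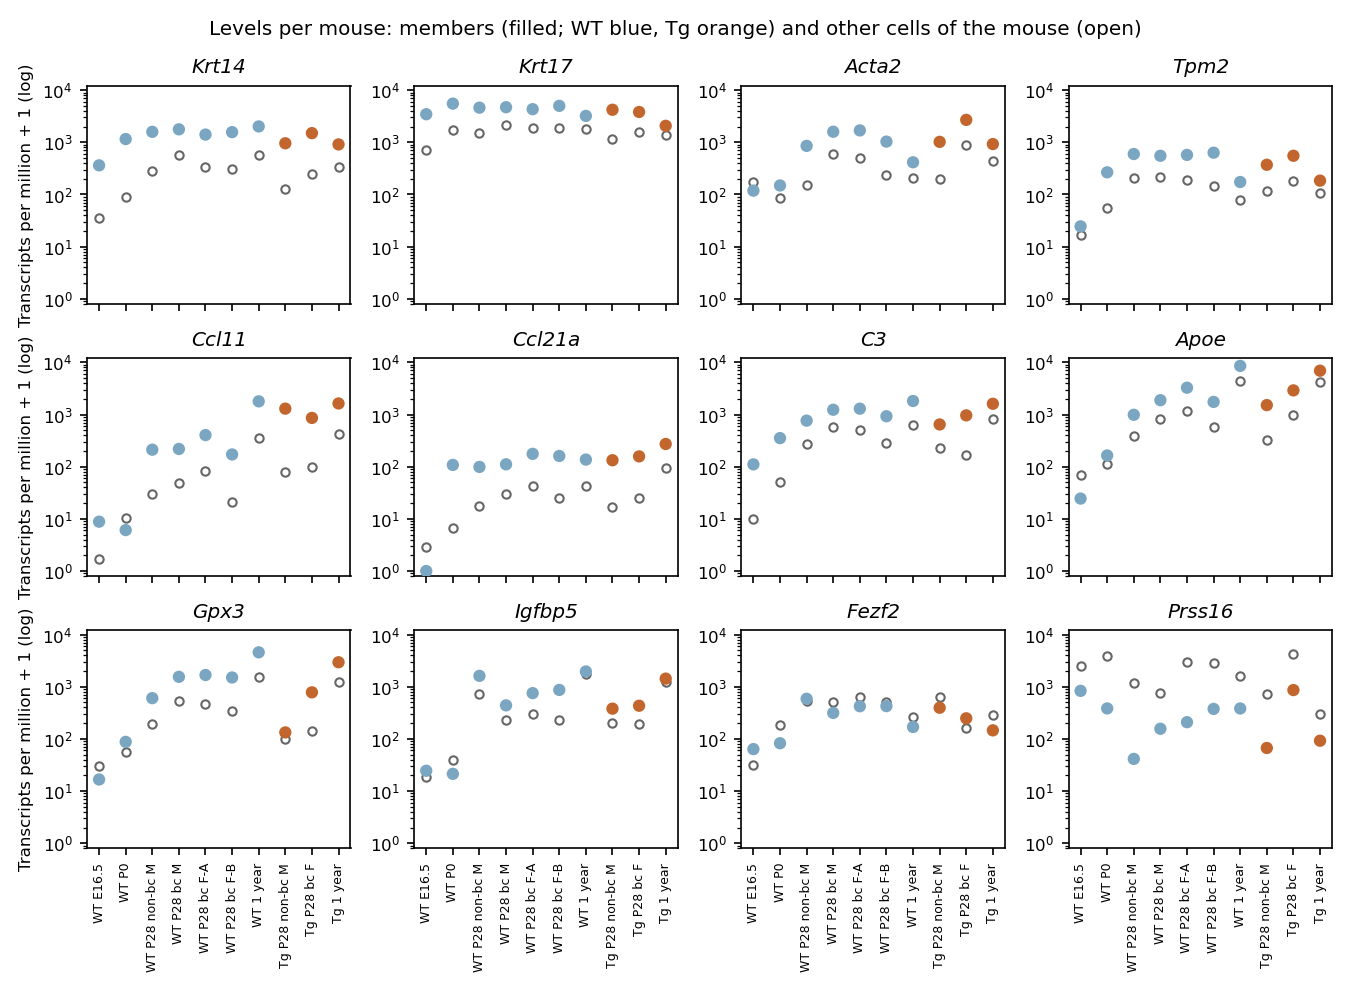
Filled points give the level of 12 genes in members of each mouse (CPM plus 1, log axis; WT blue, transgenic orange), and open points the level in all other cells of that mouse. *Krt14*, *Krt17* and *C3* of members lie above the open points in every mouse, *Prss16* lies below in every mouse, and *Acta2*, *Ccl11*, *Apoe*, *Gpx3* and *Igfbp5* of members are lowest at E16.5 and P0.

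Markers of other cell types were low but not absent. In members, the summed level of 13 thymocyte markers was 32.96 to 415 CPM over the 10 mice, against 45.96 to 2328 in the other cells. Of 10 fibroblast markers, the sum was 100.7 to 320.1, with *Pdgfra* at 0 to 4.33. *Ptprc*, which encodes CD45, was at 0 to 7.92, and *Pecam1* at 0 to 7.33. Endothelial markers summed to 0 to 18.3 and myeloid markers to 3.47 to 89.1. The parathyroid markers, led by *Pth*, parathyroid hormone, summed to 19.7 to 124.4 in most mice, but to 1648 in female B, 440.6 in the transgenic 1-year male and 5245 in the WT 1-year female, whose other cells had 27835. Their part in the results below was not tested.

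Members changed with age in many genes. Levels were compared over mice in a model with age, genotype and protocol (edgeR's quasi-likelihood test, Benjamini-Hochberg adjustment over 13243 genes). From P28 to 1 year, 3.64% of the genes passed an adjusted p of 0.05, 2.16% higher and 1.48% lower (196 genes), and for 439 genes, 91.1% of those that passed, the 1-year animals lay outside the P28 mice of their own genotype, against 24.2% of all genes tested. The comparison rests on 2 old mice, as defined here. Without the WT 1-year female 0.227% passed (28 genes), without the transgenic 1-year male 1.26%, and with DESeq2 2.39%.

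Of 13 genes listed for lipid transport and defence against oxidants, 8 rose and 0 fell, with a median log2 change of 1.64 against 0.00 over all genes. The gene lists were chosen with earlier results of these data known, so counts over a list are not independent evidence. The other cells moved as well, from a summed level of 1531 to 2934 CPM in WT and 1462 and 2067 in transgenic mice at P28. At 1 year, it was 8338 (WT) and 8506 (transgenic) in those cells. *Apoe*, apolipoprotein E (chr7:19696109-19699188, minus strand), had 987, 1880, 3263 and 1744 CPM in WT members at P28, 1513 and 2898 in transgenic members at P28, and 8536 and 6909 at 1 year in WT and transgenic. Both 1-year values lay above all 6 values of P28, and the log2 change was 1.64 ± 0.29 (SE, adjusted p = 0.0135). *Gpx3*, a secreted glutathione peroxidase, had 603 to 1674 in WT members and 131.98 and 779 in transgenic members at P28, and 4558 and 2939 at 1 year, a log2 change of 1.80 ± 0.22 (adjusted p = 0.00233). The other 6 were the glutathione transferases *Gstm1* and *Gstm2*, the aldehyde dehydrogenases *Aldh2* and *Aldh1a1*, the thioredoxin inhibitor *Txnip* and the lipase-like carboxylesterase *Ces1d*. *Ces1d* went from 5.39 to 8.38 CPM at P28 to 144.4 and 140 at 1 year, a 18.7-fold change (log2 4.23 ± 0.25, adjusted p = 7.52e-05). *Ces1d*, *Gpx3*, *Gstm2* and *Apoe* passed the threshold in 19, 19, 18 and 18 of 19 alternatives.

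Contractile genes fell, 5 of 10 with 0 rising. *Acta2* stood at 413 and 924 CPM at 1 year in WT and transgenic members, against 853 to 1688 and 1019 and 2690 at P28, a log2 change of -1.64 ± 0.25 (adjusted p = 0.00747). *Tagln* fell to 235.7 and 452.4 (log2 -1.84 ± 0.26, adjusted p = 0.00485). *Tpm2* fell to 172.5 and 183 from 551 to 632 in WT and 370 and 551.5 in transgenic members (log2 -1.64 ± 0.18, adjusted p = 0.00213). *Myl9* fell as well, and *Actg2*, whose levels were low throughout (at most 16.48 CPM), passed in only 9 of 18 alternatives. *Vim*, vimentin, fell from 341 to 673.5 in WT and 240 and 304 in transgenic members at P28 to 97.03 and 61.2.

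Of 17 matrix genes, 4 rose and 0 fell. They were the small proteoglycans *Dcn*, *Fmod* and *Prelp* and the metalloproteinase inhibitor *Timp2*. *Dcn* had 114.6 to 398 in WT and 152.3 and 206.5 in transgenic members at P28, and 2056 and 797 at 1 year (log2 2.41 ± 0.35, adjusted p = 0.00547), and *Prelp* had 14.01 to 42.1 and 54.97 and 74.995, and then 445.8 and 439 (log2 3.44 ± 0.41, adjusted p = 0.00233). The fibroblast marker *Col3a1* rose too, from 2.60 to 45.4 in WT and 10.99 and 58.1 in transgenic members to 89.4 and 202.1, whereas *Pdgfra* was at 2.24 and 1.94. The summed fibroblast markers were 279 and 320.1 at 1 year against 100.7 to 290.7 at P28, and their part in the rise of matrix genes was not tested.

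Among secreted signals, *Ccl11* rose from 170.5 to 402.2 in WT members at P28 to 1788 at 1 year, and was at 1293 and 859 in transgenic members at P28 and 1627 at 1 year (log2 2.14 ± 0.49, adjusted p = 0.0400). That call was lost in 8 of 19 alternatives. *Il33*, an alarmin, rose to 60.4 and 68.5 from 12.9 to 19.8 and 29.3 and 25.3 (log2 1.71 ± 0.26, adjusted p = 0.00679). *Igfbp5*, an IGF-binding protein, rose to 1956 and 1427 (log2 1.73 ± 0.28, adjusted p = 0.0100). *Bmp4*, a ligand used by the early thymus, rose to 34.9 and 31.004 from 2.16 to 10.99 (log2 2.99 ± 0.51, adjusted p = 0.0123). The co-receptor *Tgfbr3* rose to 125.1 and 118.1 from 10.99 to 49.7. Most genes of these lists did not pass. Of 25 WNT, BMP, TGF-beta and Notch genes tested, 2 rose and 0 fell (median log2 change -0.07). Of 15 chemokines and cytokines, 2 rose and 0 fell (median -0.23), and of 9 IGF axis genes, 1 rose and 0 fell (median 1.19). Of the 16 FGF pathway genes tested, 3 rose (*Fgfr1*, *Fgfr3* and the feedback inhibitor *Spry1*, the latter pair losing the call in 7 of 18 and 8 of 19 alternatives) and *Etv4*, a transcription factor induced by FGF, fell. *Fgfr2*, the receptor of Fgf7 on TECs, had a log2 change of 0.17 ± 0.23 (adjusted p = 0.775).

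The keratins moved in part. *Krt19* rose to 190 and 136.7 (log2 3.05 ± 0.29, adjusted p = 0.000778) and *Krt7* fell to 425 and 398 from 1006 to 1725 in WT members, whereas the transgenic values of 386.7 and 767 at P28 reach the 1-year level (log2 -1.24 ± 0.28, adjusted p = 0.0400), while *Krt14* had a log2 change of -0.03 ± 0.24. *Col17a1* and *Bcam*, basal adhesion genes, rose. The mTEC genes *Fezf2* and *Cd40* fell, *Fezf2* to 168.1 and 144.7 CPM. *Enpep*, which encodes the Ly51 antigen, rose to 50.5 and 43.5 from 2.16 to 8.04 (log2 3.20 ± 0.36, adjusted p = 0.00213). It was the 1 of 12 cTEC markers that rose, with 0 falling and a median log2 change of -0.48 over the list. Of 18 interferon-response and 8 MHC class II genes, 0 passed.

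By the fitted log2 change, the 10 genes of largest rise were *Muc16*, *Dhrs9*, *Igkc*, *Cyp4a12a*, *Upk1b*, *Scgb3a2*, *Slc2a10*, *Cyp4b1*, *Scgb3a1* and *Ces1d*. They include a mucin (*Muc16*), a uroplakin (*Upk1b*), the secretoglobins *Scgb3a1* and *Scgb3a2* and the cytochromes *Cyp4b1* and *Cyp4a12a*. Of 11 late and mimetic mTEC markers tested, 1 rose and 0 fell, with a median log2 change of -0.37. Most of the 10 genes were low, with 5.15 to 50.96 CPM at 1 year, other than *Igkc*, *Ces1d*, *Cyp4a12a* (106.4 in the transgenic male) and *Scgb3a1* (97.1 there). *Igkc* encodes an antibody light chain of B cells. It stood at 1162.5 in the WT 1-year female and 26.8 in the transgenic male, against 4.89 to 44.2 at P28, so its rise rests mostly on 1 mouse. The 10 of largest fall were *AF529169*, *Cacna1h*, *Fam19a4*, *Ppp1r1a*, *Ptprq*, *AW551984*, *Ndn*, *Slc38a1*, *Scn3b* and *Actg2*. Of these, the amino acid transporter *Slc38a1* fell from 26.5 to 32.8 in WT and 40.3 and 72.2 in transgenic members to 2.23 and 5.15 (log2 -3.74 ± 0.27, adjusted p = 0.000194), and the sodium channel subunit *Scn3b* from 49.8 to 75.5 and 27.5 and 64.7 to 4.47 and 4.47 (log2 -3.69 ± 0.30, adjusted p = 0.000572), both in 19 of 19 alternatives.

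Of the early progenitor genes of the study, 29 (22.7% of those tested) rose from P28 to 1 year and 1 fell (*Myl9*), with a median log2 change of 0.49, and of the postnatal progenitor genes 6 of 52 rose and 5 fell, with a median of -0.20. Their summed level in members was 16878 to 20313 CPM at P28 in WT members, 18087 and 23924 in transgenic members of that age, and 35811 (WT) and 32073 (transgenic) at 1 year for the early genes. For the postnatal genes it was 26087 to 30872 and 20682 and 31189 at P28, and 38793 and 32829 at 1 year, so that the transgenic value at 1 year lay close to the higher transgenic value at P28. In the other cells, the early genes summed to 12196 to 14346 in WT and 10819 and 24837 in transgenic mice at P28. At 1 year, they were at 29080 (WT) and 25367 (transgenic) there. The postnatal genes were at 8194 to 11357 and 5657 and 12293 in the other cells at P28, and at 19356 and 19649 at 1 year. Whether these sums changed differently in members was not tested. Since the study drew both lists from these samples, the counts are not independent evidence.

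A test of the difference between members and other cells was made in the same mice. In all, 3 of 14680 genes (0.0204%) passed in the interaction of age and cell set, namely *Anpep*, *Thy1* and *Vim* (1286 had an unadjusted p under 0.05). The number moved with the processing, to 15 with unsorted libraries only, 14 with the 4 libraries left out above counted with the non-barcoded male, and 9 without the protocol term. For *Vim*, members fell by 1.60 more on the log2 scale than the other cells did (SE 0.21, adjusted p = 0.0135). *Apoe* and *Gpx3* had log2 changes of 2.31 and 2.33 in the other cells, and their interactions had adjusted p = 0.280 and 0.576. For *Acta2* and *Tagln*, the other cells had log2 changes of -1.01 and -0.58 that did not pass, with interactions of adjusted p = 0.209 and 0.0685.

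**Figure D4:**
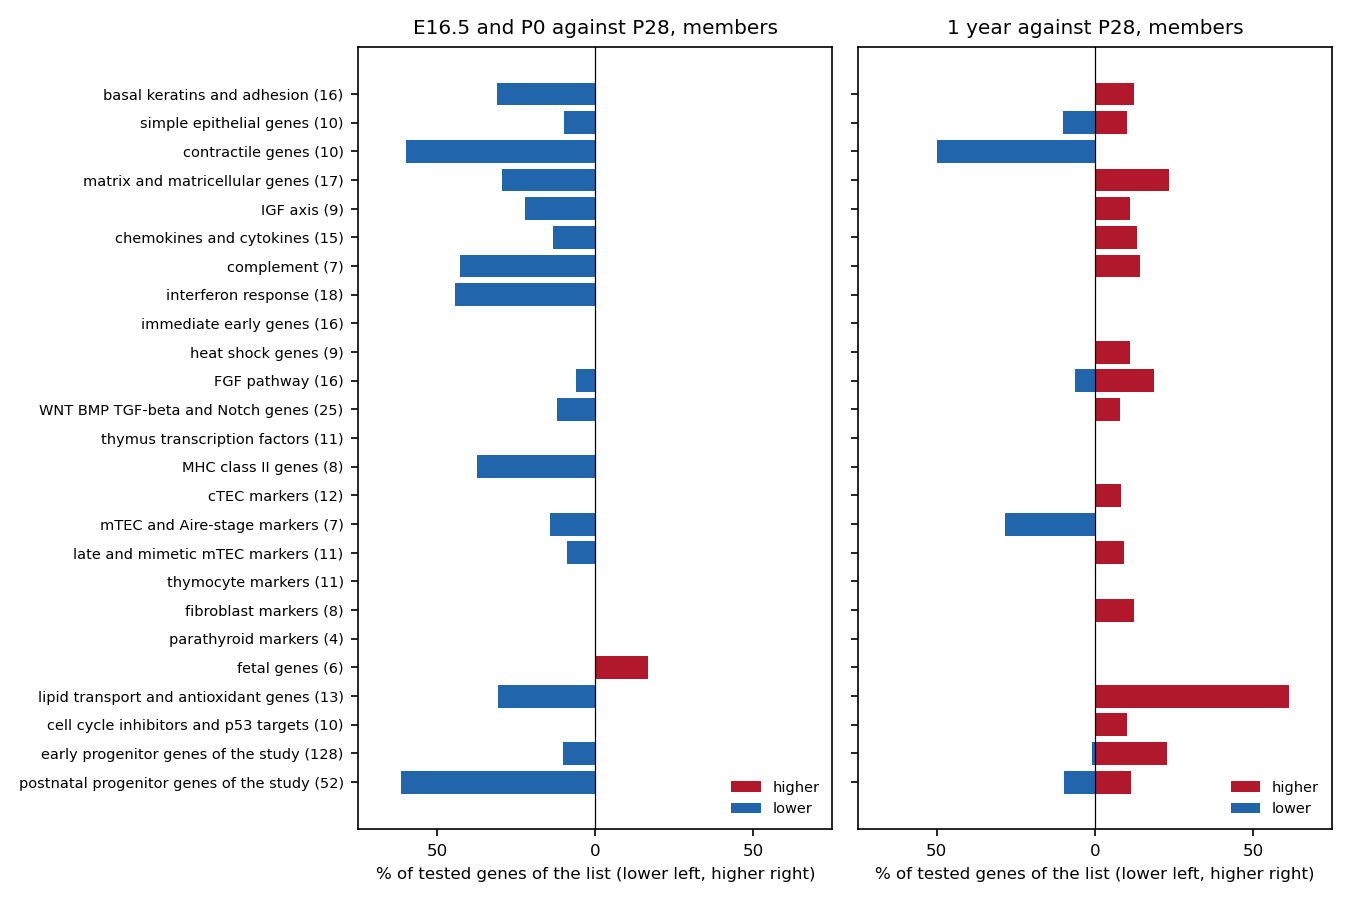
For each gene list (number of genes tested in brackets), bars give the percentage of genes that passed an adjusted p of 0.05 in members, lower to the left in blue and higher to the right in red, for E16.5 and P0 against P28 (left) and for 1 year against P28 (right). At 1 year, 5 of 10 contractile genes were lower and 8 of 13 lipid transport and antioxidant genes higher, and at E16.5 and P0, 32 of 52 postnatal progenitor genes were lower.

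At E16.5 and P0, members differed from P28 members in 1.52% of the genes, 34 genes higher (0.257%) and the rest lower (1.26%), and 86.1% of those that passed lay outside the range of the WT P28 mice, against 31.6% of all genes tested. After thinning, 4 genes passed as higher and the rest of the 1.32% that passed were lower. These 2 ages were 1 mouse each with 21 and 27 cells. Of the P0 members, 20 came from UEA-1+ sorts and 7 from unsorted libraries, whereas all members at E16.5 were unsorted. Age and sort can therefore not be told apart in the P0 levels below or in their differences from E16.5. Each had its own term in the model, so the spread in the test came from the other mice. Without E16.5 only 19 genes passed, and genes that did not pass are not shown to be equal. Since 49 of the lower genes were at 0 at E16.5, fitted folds depend on the small value added to zeros. The levels of the E16.5 and P0 sums pooled (324020 transcripts, of which 3 are 9.26 CPM) are therefore given beside the WT P28 mean. On that scale, levels under 9.26 CPM were set to that value, and genes not above it in either group were left out. The median log2 ratio of the remaining 10849 genes was 0.00, although the fitted median of all 13243 genes was -0.41.

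The contractile genes that rank among the members' leading genes at P28 were low, 6 of 10 passing as lower and 0 as higher. The pooled median log2 ratio was -1.69 over the 8 of them above the floor. *Acta2* had 117.5 CPM at E16.5 and 147.8 at P0, 9.50-fold below the WT P28 mean of 1291 (adjusted p = 0.000468). *Tagln* had 23.5 and 35.6, 32.4-fold below the mean of 1002 (adjusted p = 0.000207). *Tpm2* had 23.5 at E16.5 and 265.1 at P0, and did not pass in 1 of 19 alternatives.

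*Apoe*, *Gpx3*, *Igfbp5* and *Ccl11* were also lower at E16.5 and P0. *Apoe* had 23.5 and 163.1 at E16.5 and P0, 18.2-fold below P28 (adjusted p = 0.000468), *Gpx3* 15.7 and 86.6, 22.7-fold below (adjusted p = 0.000207), and *Igfbp5* 23.5 and 20.4, 42.4-fold below (adjusted p = 0.000855). *Ccl11* had 7.83 and 5.09, from 2 transcripts in all, and its call was lost in 9 of 19 alternatives. Each of these 4 genes thus passed as lower at E16.5 and P0 than at P28 and as higher at 1 year. In the other cells, *Gpx3* had 29.4 and 54.3 at E16.5 and P0, against 189.6 to 533.4 in WT mice at P28. *Ccl11* had 0.698 and 9.29 there, against 20.2 to 80.1. In those cells, whose sums were far larger, 4021 of 22427 genes passed in the same comparison. Whether members differ from other cells in these changes was not tested.

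Of the basal genes, 5 of 16 were lower and 0 higher, with a pooled median log2 ratio of -0.37. *Krt14* had 360.8 at E16.5 and 1153 at P0 against 1583 at P28 (adjusted p = 0.0268), while *Krt17*, at 3453 and 5515 against 4656, did not pass (adjusted p = 0.686), nor did *Trp63*. *Krt7* had 62.7 and 790 against 1273 ± 312.3. Among 18 interferon-response genes, 8 were lower and 0 higher, with a pooled median of -0.37, and most of that lay at E16.5. *Ifi27l2a* had 125.4 at E16.5 and 887 at P0 against 1708 at P28 (adjusted p = 0.000549). *Ifit3* had 15.7 at E16.5 and 525.3 at P0, the latter above the P28 mean of 443.2, and its call turned to a log2 difference of 0.10 without E16.5. *Ifit1*, at 70.5 and 1099 against 452.7 ± 164.4, did not pass.

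Complement (*C3*, *C1s1* and *C1ra*, 3 of 7), matrix genes (5 of 17, including *Col6a1* and *Sparc*), MHC class II genes (3 of 8) and the mTEC gene *Fezf2* (62.7 and 81.5 against 436, adjusted p = 0.00229) were lower as well. The call of *C1ra* was kept in 8 of 19 alternatives. *Ccl21a* had 0 transcripts at E16.5 and 106.97 CPM at P0 against 135.6 at P28. Of the postnatal progenitor genes, 32 of 52 were lower and 0 higher, with a pooled median log2 ratio of -1.31. Of the early progenitor genes, 13 (10.2%) were lower and 0 higher, with a pooled median of -0.09. The early genes summed to 11939 CPM at E16.5 and 18621 at P0, against 16878 to 20313 in WT members at P28. The 10 named genes of largest fall were *Oas2*, *Slc25a12*, *Cd14*, *Rcor3*, *Cdkn2c*, *Slc4a11*, *Cyp2f2*, *Sdc3*, *Pdlim3* and *Map1b*. The first 5 had 0 transcripts at both ages and were at least 3.27-fold, 2.57-fold, 2.91-fold, 2.91-fold and 1.77-fold lower than at P28, against 3 transcripts over both mice. Their calls were kept in only 7, 8, 5, 5 and 4 of 18 alternatives, and those of the other 5 in 17 or 18 of 19.

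The 10 named genes that were higher at E16.5 and P0 were *Mfap2*, *Meg3*, *Adam23*, *H19*, *Fn1*, *Igf2bp2*, *Kcnn3*, *Nqo1*, *Lss* and *Stmn2*. Among them are imprinted or fetal genes (*H19*, *Meg3*, *Igf2bp2*) and the matrix gene *Fn1*, fibronectin. *Fn1* had 313.6 at E16.5 and 603 at P0 against 33.8, 67.5, 57.5 and 56.05 at P28 (log2 2.74 ± 0.21, adjusted p = 0.000207) and passed in 19 of 19 alternatives. *H19* had 164.6 and 107.1 against 3.03 to 31.3 (adjusted p = 0.0304), and *Mfap2*, a microfibril protein, had 39.2 and 35.7 against 0.466 to 4.34 (adjusted p = 0.0173). These 2 passed in 10 of 18 and 11 of 17 alternatives, and *Meg3* in 5 of 17. The list of fetal genes did not include *Meg3* and *Igf2bp2*. Of its 6 genes tested, *H19* was the 1 that passed, and *Igf2*, with 110 and 147.8 against 21.2 ± 22.96, did not (adjusted p = 0.225).

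*Fgf7* RNA was examined first, as a check of the labels. Members of transgenic mice had *Fgf7* at 23.8 (P28 male), 42.2 (P28 female) and 17.9 (1-year male) CPM, and WT members at 0 to 1.24 until P28 and 7.15 at 1 year. A *Fgf7* transcript was found in 7.50% to 15.7% of transgenic members, fewer than the 8.76% to 37.8% of the other cells of the same mice. The deposited counts do not separate the transgene from the endogenous gene. *Fgf7* itself did not pass the test over mice (adjusted p = 0.176), with 10 mice in the fit.

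The fit held 3 transgenic and 7 WT mice. The WT mice at E16.5 and P0 had age terms of their own and did not inform the difference between genotypes. Leaving either of them out was therefore a weak alternative. In all, 10 genes passed, 3 higher (0.0227%) and 7 lower (0.0529%), and 778 had an unadjusted p under 0.05. DESeq2 called 29. Of the 10, *Ighg2b* and *Ighg2c* rest on antibody transcripts of the WT 1-year female alone, at 98.4 and 48.3 CPM there and 0 to 10.2 elsewhere. There were 0 with the P28 mice alone, without the protocol term, or without female A, female B, the WT 1-year female or the transgenic 1-year male, and 6 passed without the transgenic P28 female and 23 without the WT barcoded male.

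Of 16 FGF pathway genes, 2 rose and 0 fell, with a median log2 difference of 0.50 against -0.01 over all genes. Of 16 immediate early genes, which respond to stress and handling of cells, 0 passed, with a median log2 difference of 0.66. Their summed level in members was 11849 and 6921 CPM in the transgenic P28 male and female and 8548 in the transgenic 1-year male, against 3903 to 11651 in WT mice at P28 and 5811 in the WT 1-year female, and their part in the FGF pathway values was not tested. *Spry1*, the feedback inhibitor of FGF signalling (chr3:37639947-37644598, plus strand), had 18.6, 14.9, 13.6 and 12.9 CPM in WT members at P28, 86.1 and 48.7 in transgenic members, and 42.01 in WT against 97.3 in transgenic members at 1 year. At P28, the groups did not overlap, and the same was seen for 13.6% of all genes tested. With 1 mouse per genotype at 1 year, overlap could not be judged at that age. The log2 difference was 1.76 ± 0.25 (SE, adjusted p = 0.0474), and it passed in 8 of 20 alternatives. Of the WT members at E16.5 (39.2) and P0 (81.5), those at P0 lay within the range of the transgenic values. *Etv1*, an ETS transcription factor downstream of FGF receptors (chr12:38779380-38870484, plus strand), had 5.20, 1.63, 3.71 and 2.16 in WT and 29.3 and 13.1 in transgenic members at P28, and 3.58 and 31.6 at 1 year. The log2 difference was 2.77 ± 0.35 (adjusted p = 0.0377), and it passed in 9 of 19 alternatives. *Etv4* and *Etv5* had log2 differences of 1.83 ± 0.49 and 1.53 ± 0.35 that did not pass (adjusted p = 0.350 and 0.261), and *Fgfr2* of 0.19 ± 0.20.

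The third gene that was higher, *Hba-a1*, encodes alpha globin of red blood cells. It had 2067, 2424 and 651.8 CPM in transgenic members, and 7.83 to 229 in WT members except for 956 in the non-barcoded male. A near-identical copy of this gene exists, so its counts are uncertain, and other cells of the same mice held it too (396 ± 391.4 in WT at P28). The part of red cell RNA in this difference was not tested.

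The genes that fell and are named by the rule were *Epyc*, *Ebf1*, *Pcdh17*, *Mmd* and *S100a6*. *Pcdh17*, a protocadherin, had 89.8, 70.8, 58.1 and 80.8 in WT members at P28 and 46.5 at 1 year, against 18.3, 18.7 and 17.3 in transgenic members (log2 -1.74 ± 0.22, adjusted p = 0.0377). *Ebf1*, a transcription factor known from B cells and stroma, had 19.6 to 36.9 and 47.4, against 1.83, 5.62 and 4.18 (log2 -3.13 ± 0.38, adjusted p = 0.0377). *S100a6*, a calcium-binding protein, had 313.8 to 690 and 746, against 117.2, 249.4 and 357 (log2 -1.15 ± 0.17, adjusted p = 0.0478). *Epyc*, a small proteoglycan, had 9.54 to 38.4 at P28 in WT members and 0.486 to 1.83 in transgenic members.

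Few other listed genes passed in the transgenic comparison. *Acta2* (1019 and 2690), *Krt14* (957 and 1498) and *C3* (644 and 962) did not pass, and of the basal, contractile, matrix, complement, interferon-response and lipid transport lists 0 genes passed. *Ccl11*, at 1293 and 859 against 170.5 to 402.2 in WT at P28, had a log2 difference of 1.53 ± 0.46 that did not pass (adjusted p = 0.453). *Gpx3*, at 131.98 and 779 against 603 to 1674, had one of -1.14 ± 0.20 (adjusted p = 0.101). Postnatal progenitor genes had a median log2 difference of 0.00, with 0 of 52 passing, and of the early progenitor genes *Spry1* alone passed. In the interaction of genotype and cell set, 2 of 14680 genes passed (0.0136%), the beta globins *Hbb-bs* and *Hbb-bt*. For *Spry1*, other cells had a log2 difference of 1.78 and the interaction had adjusted p = 1.00. For *Etv1*, the corresponding values were 1.47 and 0.848. Neither response is therefore shown to differ between members and other TECs.

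**Figure D5:**
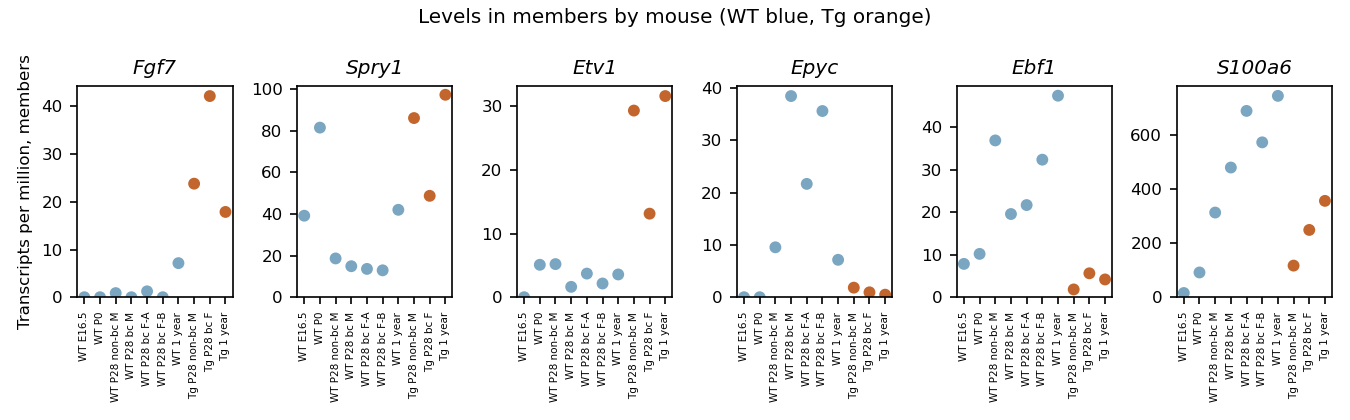
Points give the level in members of each mouse (CPM, linear axis from 0; WT blue, transgenic orange) of *Fgf7*, of *Spry1* and *Etv1*, which were higher, and of *Epyc*, *Ebf1* and *S100a6*, which were lower in transgenic mice. *Spry1* of the WT P0 mouse (81.5) lies among the transgenic values, while the 4 WT P28 mice lie between 12.9 and 18.6.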

How the data were processed

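CEL-Seq2 libraries of single sorted TECs were sequenced by the authors. Reads were demultiplexed with bcl2fastq 2.17.1.14 and aligned with bwa 0.6.2-r126 to mouse gene models (ENCODE VM9, in which strongly overlapping loci were merged) and ERCC spike-ins, and sense reads that fitted a single locus were kept, per the labels and the study's methods. The deposited values are estimated counts of transcripts per gene and well, made by the authors from whole numbers of UMIs with a correction for UMIs of equal sequence out of 4096. Each table has 192 columns, of which columns 1 to 96 or columns 97 to 192, whichever held more transcripts, were used (median 96.8% of the transcripts), and cells with 1500 transcripts or more were kept. Spike-ins, *Hprt* and mitochondrial transcripts did not enter the levels.

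The rule, the members and the gene lists were chosen with earlier results of these data known. Estimated counts of members were summed per mouse, which was the replicate, and rounded. Sums were compared with edgeR 4.0.16 in R 4.3.3 (quasi-likelihood test, TMM scaling, genes filtered by filterByExpr, Benjamini-Hochberg adjustment over all genes tested, two-sided), with age, genotype and protocol (barcoded or not) as terms, over 10 mice. E16.5 and P0 had a term each, and the mean of both was compared with P28. The labels name an individual for the barcoded females A and B (letters given here). All other libraries were joined into mice by age, genotype, sex and protocol, and may hold cells of more than 1 animal each. Interactions compared members with other cells of the same mouse. Levels are counts per 1000000 (CPM) of the summed transcripts. Shares have exact binomial intervals at 95%. Named genes were, per comparison, the 10 with the largest fitted change in each direction among those that passed and did not overlap between groups, beside members of the lists that passed. Loci are those of GENCODE models on GRCm38. DESeq2 1.42.0, other filters, limits of *Krt5*, thinning, other sets of libraries and leaving out each mouse were alternatives. The fits were tested on simulated data. Of the 3 comparisons, that of E16.5 and P0 recovered the fewest changes there and had the largest share of false calls. Its fitted changes were also shifted downward. Python 3.11.15 was used for all other steps.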

Additional observations from a re-analysis of the deposited data

Results flagged for a closer look

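Of 76 values of the 4 WT P28 mice that were examined for a mouse far from the other 3, 7 had one, and chance gives about 1 in 20. The summed level of immediate early genes in members was 1.165e+04 CPM in the barcoded male, against 3903 to 5213 in the others. Parathyroid markers summed to 1648 in female B, against 51.6 to 124.4. *Hba-a1* was at 956.2 in the non-barcoded male, against 23.8 to 68.1. In that mouse, *Dhrs9* was at 0, against 1.08 to 1.24, and *Mfap2* at 4.335, against 0.466 to 1.08. *Kcnn3* was at 16.17 in female B, against 19.3 to 19.9, and *Rcor3* at 17.23 in the barcoded male, against 29.1 to 31.2.

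For 5 genes, the effect in members differed from that in the other cells of the same mice (edgeR's quasi-likelihood test of the interaction). The difference in log2 effect of *Foxn1-Fgf7* was 6.15 for *Hbb-bs* (adjusted p = 0.0340) and 3.39 for *Hbb-bt* (adjusted p = 0.0054), 2 beta globins of red cells that share most of their sequence. The difference in the log2 change to 1 year was -2.47 for *Anpep*, aminopeptidase N (adjusted p = 0.0021), 1.97 for *Thy1* (adjusted p = 0.0133) and -1.60 for *Vim* (adjusted p = 0.0135).

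The share of members was lower in both transgenic mice than in WT mice at P28 and 19.48 percentage points higher in the transgenic animal at 1 year. With 1 mouse per genotype at 1 year, this difference between ages was not tested.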

How the results depend on the processing

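The share of tested genes that passed moved with the processing. For *Foxn1-Fgf7* against WT (0.0755%, 10 genes), it was 0.219% with DESeq2 (29 genes), 0.863% without a filter on low counts, 0.152% after thinning (14 genes, 5 of them shared), 0.0452% with unsorted libraries only (6), 0% without the protocol term, 0.00851% with *Krt5* at 50 (1), 0.135% with the 4 libraries that did not match their label as an additional WT P28 mouse (17), 0% with P28 mice only, and 0% to 0.186% when 1 mouse was left out (0 genes without female A, female B, the WT 1-year female or the transgenic 1-year male, 6 without the transgenic P28 female, 23 without the barcoded WT male). For 1 year against P28 (3.64%), it was 2.39% with DESeq2 (288 genes shared), 4.64% without a filter, 2.94% after thinning, and 0.227% to 4.23% without 1 mouse (0.227% without the WT 1-year female, 1.26% without the transgenic one, 1.71% without the transgenic P28 female, 1.86% without female B, 2.54% without female A). For E16.5 and P0 against P28 (1.52%), it was 3.36% without a filter, 0.974% without the protocol term, 1.32% after thinning, where fewer genes were tested, and 0.146% to 1.67% without 1 mouse (0.146% without E16.5, 0.818% without female A, 0.905% without female B). The interaction of *Foxn1-Fgf7* (0.0136%) had 0% without the protocol term, and that of 1 year (0.0204%) had 0.103% with unsorted libraries (15 genes), 0.0613% without the protocol term (9) and 0.0952% with the 4 libraries counted with the non-barcoded male (14). Of the named genes, *Ifit3* at E16.5 and P0 changed its direction, to 0.10 without E16.5 (-5.08 without P0). Named genes kept direction and threshold in 74 values for *Foxn1-Fgf7* and lost the threshold in 85, and for 1 year in 896 of 1048 and for E16.5 and P0 in 932 of 1220 values. The difference in share at P28 ranged from -9.30 (*Krt5* at 20) to -3.93 (*Krt5* at 50) percentage points. Leaving out the 2 libraries with transcripts outside the used columns, chosen after seeing the data, gave the same numbers of genes. The causes were not tested. No paired analysis was possible because the replicate numbers count libraries within a mouse and pair no mice across groups. The depth at E16.5 and P0, with 21 and 27 members, limits what could be detected there.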
